A study of Mus musculus with 24 samples.

Results

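The proteasome subunit genes and their direct partners were followed across liver, brain, heart and skeletal muscle of wild-type (WT) mice and of mice homozygous for the *Rap1* I312R knockin (*Rap1* KI/KI). Members were the genes on the array whose symbol begins with *Psma*, *Psmb*, *Psmc*, *Psmd*, *Psme*, *Psmf* or *Psmg* followed by a number, with 1 probe kept per gene, the one with the highest mean over the 24 arrays. This gave 50 genes of 21368 named genes, of which 47 are subunits, assembly factors, activators or inhibitors of the proteasome and 31 make up the constitutive 26S particle. All mice were male, from a line back-crossed to C57BL6 (C57BL/6N in the study's methods), and the knockin allele was made by CRISPR/Cas9 editing of the endogenous gene, so the allele is not restricted to a cell type. The change removes the binding of RAP1 to TRF2 and thereby to telomeres. The study also reports less RAP1 protein in KI/KI embryonic fibroblasts and brain. The comparison thus asks how gene expression differs when RAP1 is outside the telomere and lower in amount, which cannot be told apart here. There were 3 WT mice and 3 *Rap1* KI/KI mice (labelled RAP1 MUT), and each mouse gave all 4 tissues. WT1 and KI1 were 5 months old, and WT2, WT3, KI2 and KI3 were 2 months old.

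The proteasome degrades proteins tagged with ubiquitin. Its 20S core is a barrel of outer rings of alpha subunits and inner rings of beta subunits, of which only *Psmb5*, *Psmb6* and *Psmb7* encode constitutive proteolytic sites. The 19S regulatory particle caps the barrel, with ATPase subunits (*Psmc* genes) that unfold substrates and non-ATPase subunits (*Psmd* genes) that bind and remove ubiquitin. Interferons induce *Psmb8*, *Psmb9* and *Psmb10*, whose products replace the constitutive catalytic subunits to form the immunoproteasome and alter the peptides available for MHC class I. Other caps, the PA28 activators encoded by *Psme1*, *Psme2* and *Psme3* and the PA200 activator encoded by *Psme4*, open the barrel without ubiquitin. In skeletal muscle the system is known for its part in the turnover of contractile protein.

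By role, the members were 7 constitutive alpha and 7 constitutive beta subunits of the 20S core, 3 immunoproteasome subunits, 6 ATPases and 11 non-ATPases of the 19S particle, 3 assembly chaperones of the 19S and 4 of the 20S, 3 activators and 1 inhibitor, *Psmf1*. *Psma8*, a subunit of the testis proteasome, was well above background on 1 of 24 arrays, and *Psmb11*, the thymus catalytic subunit, on 0 of 24. The other 48 were tested in every tissue. The symbol rule also took in *Psmc3ip* and *Psme3ip1*, which encode interacting proteins and not subunits, and *Psme2b*, a near-identical copy of *Psme2*. No probe was named *Psme2* by its accession, so signal on the *Psme2b* probe may come from either copy. The *Psma7* spot of heart WT3 carried an outlier flag and was left out, so heart values of *Psma7* rest on 5 arrays.

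RefSeq promoter windows (build GRCm38.p6, 250 bases before to 50 bases after the annotated start, 300 bases in all) were matched for 42 of the 50 genes. They are shown for 6 of these, as examples from the catalytic subunits, their interferon-induced counterparts and the activators. Each is read 5′ to 3′ on the strand of its gene, with the bases of a motif match in capitals. *Psmb5* and *Psmb9* lie on the minus strand and the other 4 on the plus strand.
Psmb5 promoter, chr14:54617946-54618245: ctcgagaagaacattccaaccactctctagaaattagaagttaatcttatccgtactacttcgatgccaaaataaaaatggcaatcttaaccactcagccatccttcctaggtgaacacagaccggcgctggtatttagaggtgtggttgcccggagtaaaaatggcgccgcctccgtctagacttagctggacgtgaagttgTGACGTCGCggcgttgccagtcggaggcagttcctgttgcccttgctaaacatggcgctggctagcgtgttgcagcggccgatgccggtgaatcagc
Psmb6 promoter, chr11:70525107-70525406: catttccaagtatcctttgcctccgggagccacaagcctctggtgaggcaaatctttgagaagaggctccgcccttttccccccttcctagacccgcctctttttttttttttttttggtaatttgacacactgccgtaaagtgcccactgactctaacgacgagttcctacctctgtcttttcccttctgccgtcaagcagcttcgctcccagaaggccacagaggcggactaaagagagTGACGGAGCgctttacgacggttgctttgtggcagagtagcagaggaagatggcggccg
Psmb8 promoter, chr17:34197945-34198244: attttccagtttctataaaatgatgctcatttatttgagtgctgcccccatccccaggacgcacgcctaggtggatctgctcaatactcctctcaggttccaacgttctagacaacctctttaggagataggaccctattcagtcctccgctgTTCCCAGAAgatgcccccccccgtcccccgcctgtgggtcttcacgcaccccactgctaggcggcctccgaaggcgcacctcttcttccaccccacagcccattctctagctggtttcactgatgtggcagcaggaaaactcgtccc
Psmb9 promoter, chr17:34187281-34187580: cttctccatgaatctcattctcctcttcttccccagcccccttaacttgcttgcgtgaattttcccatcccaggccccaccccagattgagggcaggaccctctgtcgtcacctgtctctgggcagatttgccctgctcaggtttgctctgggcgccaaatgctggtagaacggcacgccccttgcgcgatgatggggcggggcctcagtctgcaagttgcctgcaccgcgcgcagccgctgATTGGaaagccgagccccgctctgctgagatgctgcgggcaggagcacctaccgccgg
Psme1 promoter, chr14:55578244-55578543: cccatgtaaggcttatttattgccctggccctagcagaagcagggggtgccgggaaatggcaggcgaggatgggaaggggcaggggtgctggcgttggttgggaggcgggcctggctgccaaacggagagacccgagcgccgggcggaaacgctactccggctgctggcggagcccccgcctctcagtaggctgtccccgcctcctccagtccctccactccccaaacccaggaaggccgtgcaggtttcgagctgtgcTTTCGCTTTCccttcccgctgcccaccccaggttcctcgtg
Psme4 promoter, chr11:30771525-30771824: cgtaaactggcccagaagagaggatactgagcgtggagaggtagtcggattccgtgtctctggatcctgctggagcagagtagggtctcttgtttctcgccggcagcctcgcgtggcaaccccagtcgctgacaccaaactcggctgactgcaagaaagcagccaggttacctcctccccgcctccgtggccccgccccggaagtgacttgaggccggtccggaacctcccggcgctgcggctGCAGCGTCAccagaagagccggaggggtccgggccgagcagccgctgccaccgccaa
Matches were sought on both strands for 4 motifs, each with the letters given here and N for any base, and a palindromic match was counted once. The core of the antioxidant response element, TGACNNNGC, which NRF1 and NRF2 bind, stood in 6 of the 45 windows of the 42 genes (13.3%), against 12.4% of all 32851 promoter windows. The 6 genes were *Psmb5*, *Psmb6*, *Psmc6*, *Psmd9*, *Psmd12* and *Psme4*. Positions are those of the first base of the match in the direction of the gene, with the annotated start as 1 and the base before it as −1. In *Psmb5* the match began at −47, in *Psmb6* at −9, and in *Psme4* at −7 on the opposite strand. The NF-Y motif CCAAT stood in 16 of the 45 windows (35.6%, against 37.4% of all windows), among them that of *Psmb9*, where it began at −8 on the opposite strand and so reads ATTGG. The interferon-stimulated response element, searched as GAAA, any 2 bases and GAAA, stood in 5 windows (11.1%, against 3.44%), those of *Psmb3*, *Psmd4*, *Psmd9*, *Psme1* and *Psmg4*. In *Psme1* it began at 10 on the opposite strand. The gamma-activated site TTCNNNGAA stood in 3 windows (6.67%, against 8.3%), those of *Psmb8*, *Psmd2* and *Psmg1*, and in *Psmb8* it began at −97. These matches are letters in a window and were not tested as binding sites.

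Levels are log2 values of the processed spot signal over the 75th percentile of the same array, so that a value of 1 is a doubling of that percentile's signal, and differences are between log2 levels. Between 56.5% and 72.7% of the probes were well above background on each array, and no probe outside the control spots was saturated. Only differences within a gene are given, since 2 probes need not bind alike. Each tissue held the markers of its cells. The summed level of 8 hepatocyte genes was 11.3 to 12.2 in the liver and at most 6.8 elsewhere, that of 8 neuron genes 8.3 to 9.1 in the brain and at most 5.9 elsewhere, that of 7 cardiomyocyte genes 11.2 to 12.1 in the heart and at most 9.9 elsewhere, and that of 8 skeletal muscle fibre genes 11.99 to 12.38 in the muscle and at most 7.6 elsewhere. The arrays lay on 3 slides. All liver arrays shared slide 1 with brain WT1 and KI1, the other brain arrays shared slide 2 with heart WT1, KI1, WT2 and KI2, and the other heart arrays shared slide 3 with all muscle arrays, so tissue and slide are only partly separable. In whole tissue, fewer cells of a type and less RNA per cell cannot be told apart.

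The brain had the lowest proteasome transcript levels of the 4 tissues. In WT mice, 43 of 48 members were lower in the brain than in the mean of the other 3 tissues and 0 were higher (limma, Benjamini-Hochberg adjusted p under 0.05), where the same test called 45.3% of 18394 named genes lower and 29.6% higher. The median member difference was −1.26, beside −0.40 over all named genes and −0.94 over the brightest of 5 equal groups of genes by mean level, which held 34 of the 48 members. Among the 31 subunits of the 26S particle, 28 were lower, with a median of −1.28. The mean was lowest in the brain for 39 of the 48 members, and for 7299 of the 18394 named genes. In *Rap1* KI/KI mice 42 members were lower in the brain, and all 42 were also among the 43 of the WT mice. In 31 members all 6 brain arrays lay below all 18 arrays of the other tissues, which 16% of all named genes did. The size of the brain difference depended on the scaling. Quantile normalization, which forces every array to 1 distribution, gave a member median of −0.47 (all genes −0.22, brightest group −0.18). It gave 30 lower and 2 higher calls and 10 members with the brain arrays all lowest. The z-scores of the authors gave −1.0 (all genes −0.16, brightest group −0.68), 39 lower calls and 19 such members. The 45.3%, 29.6% and 16% above belong to the first scaling. For the other scalings such shares were not counted, so their counts have no background. The member median stayed below 0 under each scaling.

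**Figure D1:**
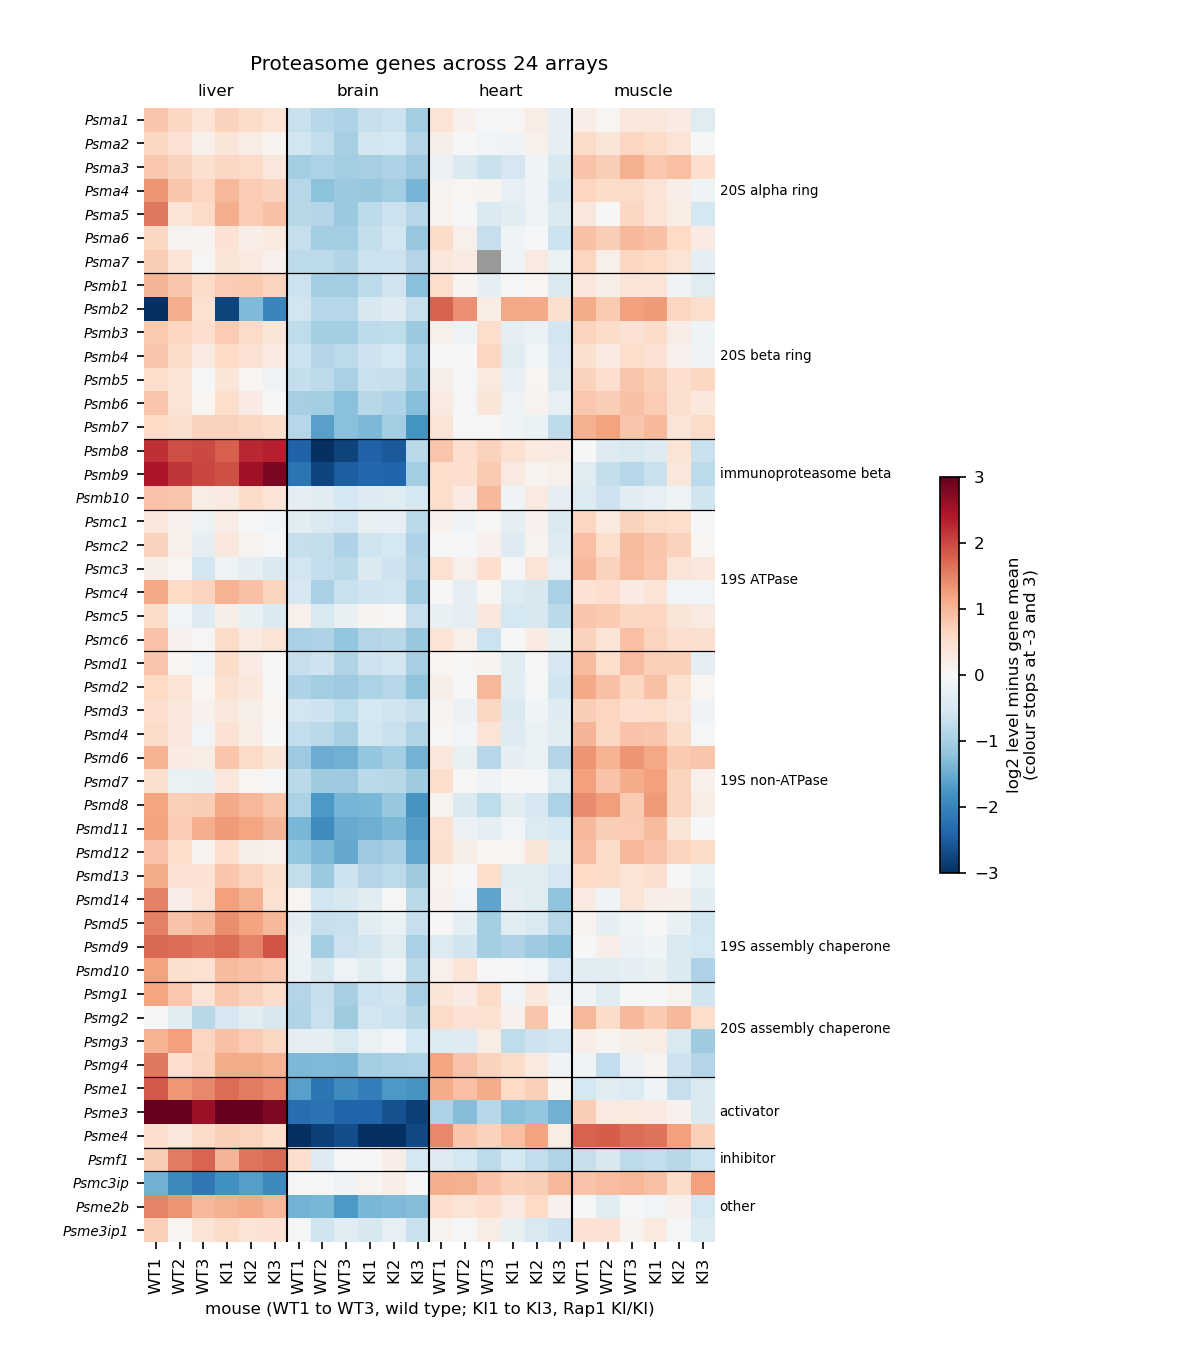
Level of the 48 tested members (rows, by role) on each of the 24 arrays (columns, by tissue and mouse), as log2 level minus the mean of the gene over all arrays, with colour from blue (−3) through white (0) to red (3). The grey cell is the flagged *Psma7* spot of heart WT3. The brain columns are blue in nearly every row, a difference whose median was −1.26 here and −0.47 under quantile normalization, and the *Psmb2* row is uneven within the liver.

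The catalytic subunits of the constitutive core followed this order. *Psmb5*, which encodes the chymotrypsin-like site, was at 6.47, 6.40 and 6.21 in the 3 WT brains, at 7.73, 7.59 and 7.15 in the livers, at 7.38, 7.16 and 7.50 in the hearts and at 7.89, 7.70 and 8.02 in the muscles. The brains lay below all other WT samples, and the liver and heart values overlapped. The brain difference was −1.20 ± 0.16 (SE, adjusted p = 2.0e-06, limma) and the muscle difference 0.80 ± 0.16 (adjusted p = 0.00041). *Psmb6*, the caspase-like site, was at 5.82, 5.78 and 5.56 in WT brain and at 7.63, 7.56 and 7.71 in WT muscle, and the WT liver values of 7.65, 7.22 and 6.89 overlapped those of muscle while no other tissue overlapped the brain. Its brain difference was −1.58 ± 0.17 (adjusted p = 1.2e-07). *Psmb7*, the trypsin-like site, was at 3.87, 3.11 and 3.48 in WT brain against 5.34, 5.22 and 5.44 in liver, 5.11, 4.68 and 4.78 in heart and 5.79, 5.93 and 5.57 in muscle. The 4 tissues did not overlap in WT mice in this gene, with brain lowest and muscle highest.

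Skeletal muscle and liver were the high tissues. In WT muscle 27 members were higher than in the other tissues and 5 lower (28.5% and 30.2% of all named genes), and in WT liver 31 were higher and 2 lower (36% and 35.4%). The member medians were 0.62 in muscle (all genes −0.06) and 0.66 in liver (all genes 0.01). The brightest of 5 equal groups of genes, with 34 of the 48 members, had medians of 0.40 in muscle and 0.22 in liver. Under quantile normalization the member medians fell to 0.31 and 0.09, beside 0.13 and −0.29 for the brightest group. The liver calls there were 18 higher and 11 lower, with no share of all named genes counted. Of the 31 subunits of the 26S particle, 24 were higher in muscle and 0 lower. The highest mean was in muscle for 20 of the 31, and for 3851 of the 18394 named genes. For 10 of the 31 the highest mean was in liver, a share close to that of all named genes (6386 of 18394). In no member did all 6 muscle arrays lie above the other 18 (5.96% of all named genes), and for 12 members all 6 liver arrays did (19.4%). Of these higher calls, 24 of the 27 in muscle and 30 of the 31 in liver were also made in *Rap1* KI/KI mice. The 5 lower calls in muscle were 2 without WT1 and 3 without WT2 or WT3, and the 2 in liver were 1 without WT3. With the slide as a block in the fit, the liver calls dropped to 14 higher, and the muscle calls were 23 higher and 0 lower.

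Within the 19S particle, 10 of 11 non-ATPase subunits and 5 of 6 ATPases were higher in WT muscle. The largest differences were in *Psmd6* and *Psmd8*, both lid subunits. *Psmd6* was at 5.92, 5.66 and 5.93 in WT muscle, at 5.65, 4.86 and 4.83 in liver, at 4.92, 4.40 and 3.76 in heart and at 3.51, 3.11 and 3.18 in brain. The muscle values all lay above those of the other tissues, by a difference of 1.59 ± 0.23 (SE, 3.01-fold, adjusted p = 1.1e-05). *Psmd8* was 1.43 ± 0.24 higher in muscle (2.70-fold, adjusted p = 6.5e-05), with WT muscle at 5.64, 5.47 and 4.99 and WT liver at 5.39, 4.93 and 4.95, which overlapped. Heart did not share the muscle pattern. Of the 31 subunits 13 were lower and 0 higher in WT heart than in WT muscle, and over all 48 members 16 were lower and 6 higher (16.5% and 19.9% of all named genes). *Psmd8* was 1.52 ± 0.30 lower (adjusted p = 0.00053) and *Psmd6* 1.48 ± 0.28 lower (adjusted p = 0.00040) in heart than in muscle. Without WT2 the members lower in heart than in muscle were 4 and those higher 3, and without WT3 they were 9 and 4. Against the mean of the other tissues, heart had 10 members higher and 5 lower (27.5% and 25.5%), and 5 higher when WT3 was left out. In *Rap1* KI/KI mice the heart calls were 4 higher and 9 lower, and they were 2 and 5 without KI2 and 3 and 4 without KI1.

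The assembly chaperones were mostly higher in liver. The 3 chaperones that build the 19S base, *Psmd5*, *Psmd9* and *Psmd10*, were all higher in WT liver, with differences of 1.46, 2.09 and 0.85, and 0 of the 3 were higher in muscle. *Psmd9* was at 2.75, 2.71 and 2.63 in WT liver against 0.85, 0.01 and 0.40 in brain, 0.62, 0.44 and 0.01 in heart and 1.03, 1.23 and 0.86 in muscle. Its heart difference was −1.03 ± 0.18 (adjusted p = 0.00014). Of the 4 chaperones of the 20S core, *Psmg1*, *Psmg3* and *Psmg4* were higher in liver and *Psmg2* was lower. *Psmg2* was at 3.96, 3.52 and 3.94 in WT muscle and at 2.93, 2.61 and 2.13 in WT liver. It was higher in muscle by 1.11 ± 0.19 (adjusted p = 7.3e-05), and its liver difference of −0.56 ± 0.19 (adjusted p = 0.015) no longer passed without WT3 (−0.36, adjusted p = 0.19) or with the slide as a block (−0.73, adjusted p = 0.067). *Psmg4* was 1.25 ± 0.28 higher in WT heart than in WT muscle (2.38-fold, adjusted p = 0.0016).

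*Psmb8* and *Psmb9* had the widest tissue range of the 20S subunits. *Psmb8*, the interferon-induced counterpart of *Psmb5*, was at 3.83, 3.59 and 3.64 in WT liver, 2.47, 2.16 and 2.33 in heart, 1.65, 1.27 and 1.19 in muscle and −0.77, −1.38 and −1.13 in brain. The 4 tissues did not overlap. The liver difference was 2.82 ± 0.29 (SE, 7.06-fold, adjusted p = 5.7e-08) and the brain difference −3.55 ± 0.29 (11.7-fold lower, adjusted p = 2.2e-09). *Psmb9*, the counterpart of *Psmb6*, was at 3.74, 3.47 and 3.33 in WT liver, 1.84, 1.81 and 2.11 in heart, 0.97, 0.61 and 0.47 in muscle and −0.86, −1.43 and −1.15 in brain, in the same order and again without overlap. Its liver difference was 3.03 ± 0.28 (8.16-fold, adjusted p = 1.1e-08). The muscle difference of *Psmb9*, −0.75 ± 0.28 (adjusted p = 0.030), did not pass under quantile normalization (−0.60, adjusted p = 0.083), with the slide as a block (−0.91, adjusted p = 0.14), or without WT1, WT2 or WT3 (−0.82, −0.78 and −0.64, adjusted p = 0.078, 0.10 and 0.18). *Psmb10*, the counterpart of *Psmb7*, varied far less. It was at 5.92, 5.89 and 5.28 in WT liver, 5.58, 5.30 and 6.03 in heart, 4.79, 4.72 and 4.54 in brain and 4.63, 4.42 and 4.73 in muscle, so liver overlapped heart and brain overlapped muscle. Its differences were 0.73 in liver, 0.64 in heart, −0.63 in brain and −0.74 in muscle, each with an adjusted p of at most 0.0066, and the muscle call was lost with the slide as a block (adjusted p = 0.0501).

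The activators *Psme3* and *Psme4* also differed widely between tissues. *Psme3*, the nuclear PA28 gamma activator, was at 6.83, 6.05 and 4.93 in WT liver against 3.1, 2.64 and 2.66 in muscle, 1.40, 1.06 and 1.49 in heart and 0.07, 0.14 and −0.05 in brain. The 4 tissues were all apart, and the liver difference was 4.55 ± 0.27 (23.4-fold, adjusted p = 2.2e-11). It rests on a single named probe. *Psme4*, which encodes PA200, was at 3.79, 3.84 and 3.70 in WT muscle, 3.47, 2.84 and 2.71 in heart, 2.52, 2.36 and 2.59 in liver and −1.17, −0.79 and −0.65 in brain. The brain difference was −3.96 ± 0.22 (15.6-fold lower, adjusted p = 1.3e-11) and the muscle difference 2.24 ± 0.22 (4.71-fold, adjusted p = 6.6e-08). A second *Psme4* probe, also above background on all 24 arrays, gave −1.94 for brain, so the direction was shared and the size was not. *Psme1*, a subunit of the interferon-induced PA28 ring, was at 6.64, 6.10 and 6.24 in WT liver, 5.91, 5.70 and 5.92 in heart, 4.26, 4.46 and 4.39 in muscle and 3.17, 2.63 and 2.92 in brain, with no overlap. It was 1.31 ± 0.17 higher in heart (adjusted p = 5.1e-06) and 1.47 ± 0.21 higher in heart than in muscle. *Psme2b* followed *Psme1*, with differences of 1.66 in liver and −2.04 in brain (adjusted p = 1.6e-08 and 8.7e-10). Its other probes, also above background on all 24 arrays, gave −1.95 and −1.07 for brain.

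The inhibitor *Psmf1* (PI31) was the member with the smallest brain difference, −0.02 ± 0.23. It was higher in WT liver by 1.74 ± 0.23 and lower in heart (−0.80, adjusted p = 0.0072) and in muscle (−0.93, adjusted p = 0.0021). The heart call was lost without WT3 (−0.66, adjusted p = 0.079), and both were lost with the slide as a block (−0.60 and −0.47, adjusted p = 0.064 and 0.31). In the liver the 5-month-old mice WT1 and KI1 had *Psmf1* at 0.79 and 1.08, below the 1.60 to 1.79 of the 2-month-old mice, a pattern chosen after its values were seen. *Psmc3ip*, a recombination factor and no proteasome subunit, ran opposite to the family, with WT liver at −3.52, −3.98 and −4.21 against −0.97 to −1.23 in heart and muscle. Its liver difference was −2.45 ± 0.16 (5.45-fold lower, adjusted p = 6.4e-11) and its heart difference 1.33 ± 0.16.

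**Figure D2:**
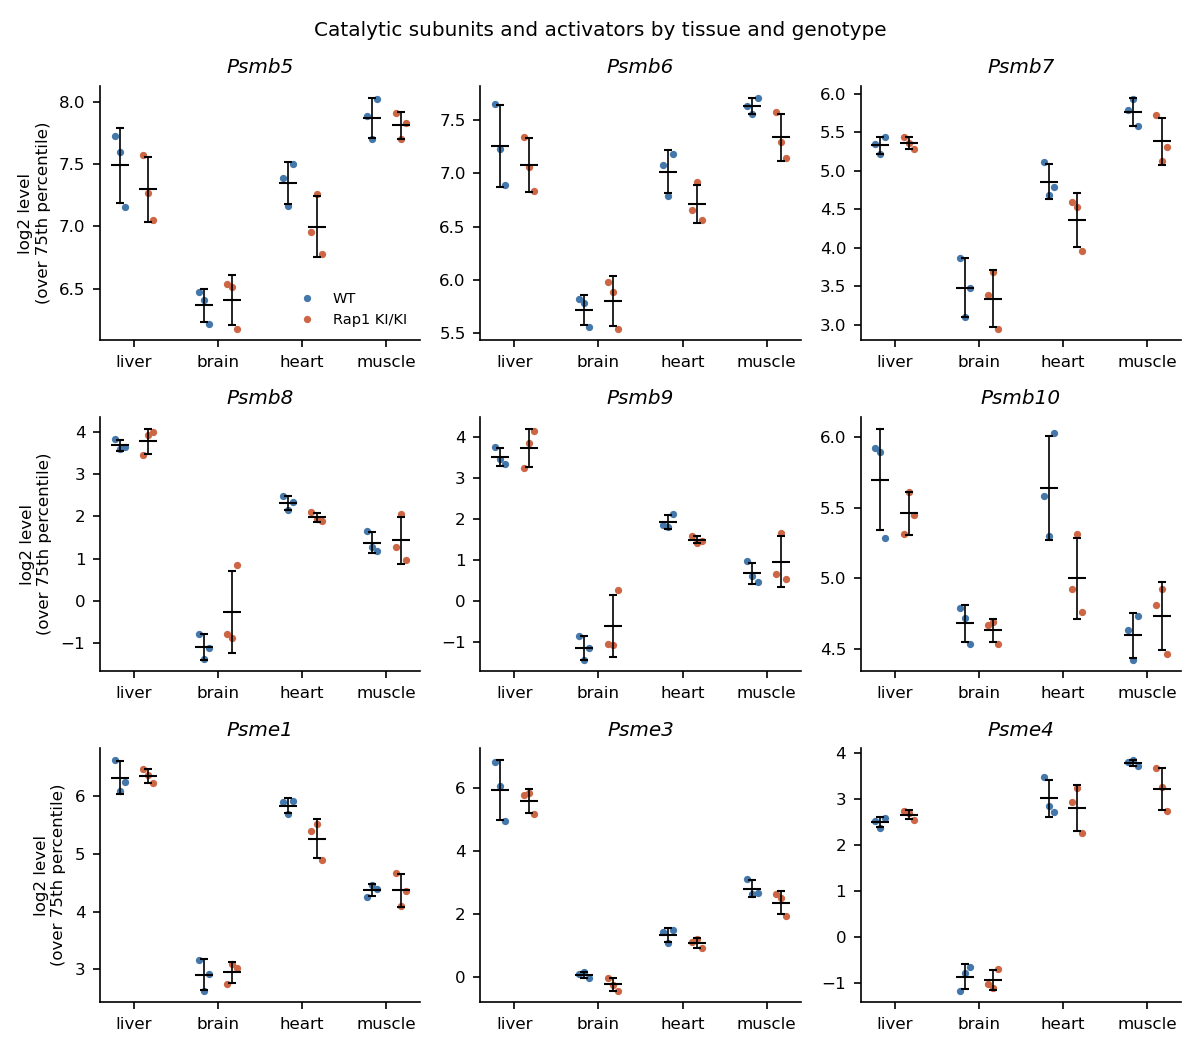
Log2 level (signal over the 75th percentile of the array) of 9 catalytic subunits and activators in the 4 tissues, with 1 point per mouse, WT in blue and *Rap1* KI/KI in orange, and black bars for the mean ± SD of 3 mice. Each gene has its own axis. *Psmb8*, *Psmb9*, *Psme3* and *Psme4* span the most, from a low in brain to a high in liver (muscle for *Psme4*), and *Psmb10* the least of the immunoproteasome subunits.

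*Psmb2*, a beta subunit without a proteolytic site, was the least stable member within a tissue, and is named for that after its values were seen. In the liver it was at −1.87, 2.62 and 1.99 in WT1, WT2 and WT3 and at −1.24, 0.20 and −0.42 in KI1, KI2 and KI3. The other members of the beta ring did not share that spread: *Psmb1*, for one, stayed between 5.14 and 5.57 on the same 6 arrays. Across the 24 arrays, after the mean of each tissue and genotype was removed, the 31 subunits of the 26S particle varied together, with a median Pearson r of 0.62 over 465 pairs, 36 of them below 0. The median r of *Psmb2* with the other subunits was −0.20. *Psmb8* and *Psmb9* varied together with r = 0.95, while *Psmb8* had r = 0.15 with *Psmb10* and a median r of −0.07 with the 26S subunits. *Psme1* had a median r of 0.47 with the 26S subunits. Genes on an array share its depth, dye and RNA, and these correlations are descriptions.

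Genes that work beside the proteasome had tissue patterns of their own. The share of all named genes called was 36% higher in WT liver, 45.3% lower in WT brain, and 28.5% higher and 30.2% lower in WT muscle. Of 12 genes of MHC class I processing, 11 were higher in WT liver (median difference 2.94) and 11 were lower in WT brain (−2.41), and *Tapbp*, which encodes tapasin, was lower in brain by 2.58. Of 19 interferon-induced genes, 15 were higher in liver and 18 lower in brain. Of 10 muscle ubiquitin ligases, 7 were higher in muscle and 2 lower (median 4.63), among them *Trim63*, which encodes MuRF1, with a difference of 8.68 ± 0.26 (adjusted p = 2.5e-15). Among 10 regulators of proteasome gene expression, 6 were higher in muscle and 1 lower. *Nfe2l1*, which encodes the NRF1 factor that restores proteasome genes when proteasome function falls, was 1.97 ± 0.20 higher in muscle (adjusted p = 1.3e-07) and 1.63 ± 0.20 lower in liver (adjusted p = 7.1e-07). *Ddi2*, the protease that releases NRF1 from its membrane anchor, was higher in liver by 2.56 and in muscle by 1.05 and lower in brain (−2.35). Of 10 proteasome partners 6 were higher and 1 lower in muscle, and of 14 genes of ubiquitin supply and shuttling 8 were higher and 1 lower there.

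Between genotypes no member passed the threshold in any tissue. The test called 0 of the 16060 named genes tested in liver, 0 of 17039 in brain, 0 of 16093 in heart and 0 of 15261 in muscle, or 0% in each. At an unadjusted p under 0.05, the members counted were 0 in liver, 0 in brain, 4 in heart, all lower, and 0 in muscle. The background was 2.04% in liver, 2.65% in brain and 2.39% in muscle in either direction, and 3% lower in heart. Over all probes, 750, 992, 2617 and 802 had an unadjusted p under 0.05 in the 4 tissues, and the lowest adjusted p was 1.0 in liver, 0.12 in brain, 0.65 in heart and 0.94 in muscle. *Terf2ip*, which encodes RAP1, had differences of 0.12, −0.02, −0.41 and −0.28, none called, and since the allele is a point mutation its transcript level is no check of the labels. With 3 mice against 3, an exact permutation test cannot go below p = 0.1.

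In the heart nearly all members were lower in *Rap1* KI/KI mice without passing the test. The difference was below 0 for 46 of 48 members, with a median of −0.33, beside −0.08 over all named genes and −0.23 over the brightest of 5 equal groups, of which 82.3% were below 0. For 17 members the 3 KI/KI mice all lay below the 3 WT mice, where 11.7% of all named genes did, and for 0 the reverse held (3.38% of all genes). *Psmg4* was at 3.19, 2.87 and 2.70 in WT and 2.56, 2.29 and 1.91 in KI/KI, a difference of −0.67 ± 0.26 (SE, unadjusted p = 0.036, adjusted p = 0.65, limma; exact permutation p = 0.1, two-sided). *Psmd13*, a lid subunit, was at 4.25, 4.07 and 4.67 in WT and 3.78, 3.81 and 3.64 in KI/KI. *Psme1* was at 5.91, 5.70 and 5.92 in WT and 5.40, 5.52 and 4.89 in KI/KI. *Psme3ip1* was at 2.29, 2.15 and 2.42 in WT and 1.97, 1.74 and 1.56 in KI/KI, and *Psmc5*, an ATPase, at 4.90, 4.85 and 5.44 in WT and 4.58, 4.63 and 4.31 in KI/KI. In each of these 5 genes the groups did not overlap, and each had an adjusted p of 0.65. Of the 17 members, *Psmd10* has a second probe with a difference of 0.18 where the first gave −0.38, so its direction in the heart is uncertain. The other 10 genes with more than 1 probe had the same sign on each probe in the heart, and all 11 did for the brain against the other tissues.

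The heart difference was uneven among mice and moved with other readings. Relative to the WT mean of each gene, the median member was at 0.09, −0.10 and 0.00 in WT1, WT2 and WT3 and at −0.29, −0.13 and −0.56 in KI1, KI2 and KI3, so KI2 lay close to WT2. KI3 was the lowest of the 6 hearts in 35 of 47 members with 6 values. The medians of all named genes were 0.01, −0.03 and 0.05 in the WT hearts and −0.08, −0.02 and −0.15 in KI1, KI2 and KI3. The share of all named genes lowest in KI3 was not counted. Leaving out KI3 gave a member median of −0.23 and leaving out KI2 −0.41. The count of members with groups apart was 30 without KI2 and 27 without WT3. With 1 mouse left out, groups lie apart more easily, and the share of all named genes apart was not counted. On slide 2 alone the median was −0.27 (all genes −0.06) and on slide 3 alone, with 1 mouse of each genotype, −0.48 (all genes −0.16). Under quantile normalization it was −0.16, under the z-scores −0.28. The summed level of 7 adipocyte genes, 6 or 7 of them above background on each heart array, was 7.9, 7.8 and 7.9 in the WT hearts and 8.6, 8.1 and 9.4 in KI1, KI2 and KI3, highest in the KI/KI mouse whose proteasome median was lowest. That of 5 endothelial genes was 7.06, 7.02 and 7.35 in WT1, WT2 and WT3 and 6.77, 6.99 and 6.84 in KI1, KI2 and KI3. That of 8 skeletal muscle fibre genes, 6 to 8 of them above background, was 6.68, 6.29 and 7.57 in the WT hearts and 6.17, 6.02 and 4.85 in the KI/KI hearts, lowest in KI3. On the adipocyte, endothelial and fibre lists the summed levels of the genotypes did not overlap. In the WT hearts and KI2 the adipocyte sum rests mostly on *Fabp4*, at 7.90, 7.63 and 7.77 in WT and 7.95 in KI2. The mean log2 level of the 7 adipocyte genes was −2.36, 0.71 and 0.61 in WT1, WT2 and WT3. It was 3.14, 0.73 and 4.17 in KI1, KI2 and KI3, so KI2 lay close to WT2. The fibre sum rests on its brightest genes, *Acta1* and *Ckm*. The mean log2 level of the 8 fibre genes was instead highest in KI3. It was −2.02, −2.02 and −1.54 in the WT hearts and −1.97, −1.87 and −1.25 in KI1, KI2 and KI3, with overlap. Of the 7 cardiomyocyte genes, *Myl7* was at −2.41 in heart WT1 and between 5.03 and 8.33 in the other 5 hearts. *Nppa* was also lowest in WT1, so the summed cardiomyocyte level hides a difference between the hearts. WT1 was the highest of the 6 hearts in 23 of 47 members, and WT3 in 20. The mean log2 level of 8 neuron genes was −2.86, −2.54 and −2.30 in heart WT1, WT2 and WT3. It was −1.01, −2.74 and −0.60 in KI1, KI2 and KI3, with 8, 5 and 7 genes above background, against 4 to 6 in WT. The summed level of the neuron genes overlapped between genotypes (4.74 to 5.77 in WT, 5.25 to 5.71 in KI/KI). The part of these tissue differences in the result was not tested.

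In muscle the members were also mostly lower in *Rap1* KI/KI mice without passing the test, with the lowest values in KI3. The difference was below 0 for 44 of 48 members and for 31 of the 31 subunits of the 26S particle, of which *Psmb5* turned to 0.05 under quantile normalization and to 0.02 without WT3, with a member median of −0.28, beside −0.07 over all named genes and −0.14 over the brightest of 5 equal groups. The 4 members above 0 were *Psme1* and the immunoproteasome subunits *Psmb8*, *Psmb9* and *Psmb10*. The groups were apart for 3 members, all lower (3.96% of all genes), and for 0 higher (2.52%). *Psme4* was at 3.79, 3.84 and 3.70 in WT and 3.66, 3.25 and 2.74 in KI/KI, a difference of −0.56 ± 0.26 (unadjusted p = 0.071, adjusted p = 0.94, limma; exact permutation p = 0.1). *Psma4*, an alpha subunit, was at 4.71, 4.61 and 4.63 in WT and 4.47, 4.26 and 3.93 in KI/KI, and *Psme3* at 3.1, 2.64 and 2.66 in WT and 2.61, 2.49 and 1.93 in KI/KI. In each of the 3 genes KI3 was lowest and KI1 closest to WT. Without KI3 the differences were −0.32 for *Psme4*, −0.28 for *Psma4* and −0.25 for *Psme3*, and without WT1 that of *Psme3* was −0.30. The mouse medians were 0.08, −0.15 and 0.07 in WT1, WT2 and WT3 and 0.01, −0.28 and −0.53 in KI1, KI2 and KI3, and KI3 was the lowest mouse in 38 of 48 members. The medians of all named genes were 0.02, −0.05 and 0.03 in the WT mice and 0.03, −0.06 and −0.20 in KI1, KI2 and KI3. The share of all named genes lowest in KI3 was not counted. Without KI3 the member median was −0.12 and without KI1 −0.42. The count of members lower and apart was 18 without WT2, 11 without WT3 and 25 without KI1, and 1 member was higher and apart without KI3. For these smaller sets too, the share of all named genes apart was not counted. Under quantile normalization the median was −0.14 and under the z-scores −0.27. The muscle of KI3 also had the highest summed level of 8 neuron genes, 5.9 against 3.8 to 4.4 in the other 5 muscles, 7 of them above background there, 8 in KI1, and 3 to 4 in the other muscles. The mean log2 level of 6 astrocyte and oligodendrocyte genes was 1.82 in muscle KI3 and −1.66 to −0.76 in the others. Their summed level was 6.686 in KI3 and 6.688 in KI2. *Gfap* was at 1.94 in KI3 and −7.54 to −2.60 in the other muscles. KI1 had the highest summed level of 8 neutrophil genes, 6.6 against 0.7 to 3.8. The summed level of 6 red cell genes, 5 of them above background on each muscle array, was 8.11, 7.56 and 8.37 in WT1, WT2 and WT3 and 9.25, 8.86 and 8.65 in KI1, KI2 and KI3, without overlap. Their part in the result was not tested.

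In the brain and the liver the members did not keep a direction. In the brain the median was 0.06 (all genes 0.01), with 34 of 48 members above 0, and it passed below 0 without KI1 or KI2 (−0.0027 and −0.0058) and on slide 1 alone (−0.0089). The groups were apart only for *Psmg4*, higher in KI/KI (5.77% of all genes), and for 0 members lower (2.94%). *Psmg4* was at 0.65, 0.68 and 0.66 in WT brain and 0.98, 1.04 and 1.07 in KI/KI, a difference of 0.37 ± 0.15 (unadjusted p = 0.051, adjusted p = 1.0, limma; exact permutation p = 0.1). The count of members higher and apart was 17 without KI3, 7 without WT1, 3 without WT2 and 2 without KI1, and that of members lower and apart was 1 without WT2 or KI1 and 2 without WT3. KI3 was lowest in 28 of 48 members in the brain, with a member median of −0.18 there beside −0.10 over all named genes. In the liver the median was −0.04 (all genes 0.03), with 26 of 48 members below 0 and 0 members with groups apart in either direction (1.89% of all genes lower, 3.34% higher). It turned above 0 under quantile normalization (0.034), without WT1 (0.085) and without KI3 (0.021). Liver WT1 was the highest of the 6 mice in 39 of 48 members, and its median lay 0.31 above the WT mean, with KI1, the other 5-month-old mouse, at 0.10 and the 4 younger mice between −0.26 and −0.03. The median of all named genes moved the same way, at 0.20 in WT1, 0.08 in KI1 and −0.11 to 0.0031 in the 4 younger mice. The share of all named genes highest in WT1 was not counted. Without WT1 the members higher and apart in KI/KI were 11 and those lower and apart 1. Without WT3 they were 1 and 13, without KI1 they were 2 and 0, and without KI3 they were 1 and 0. For the brain and liver sets with 1 mouse left out, the share of all named genes apart was not counted.

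**Figure D3:**
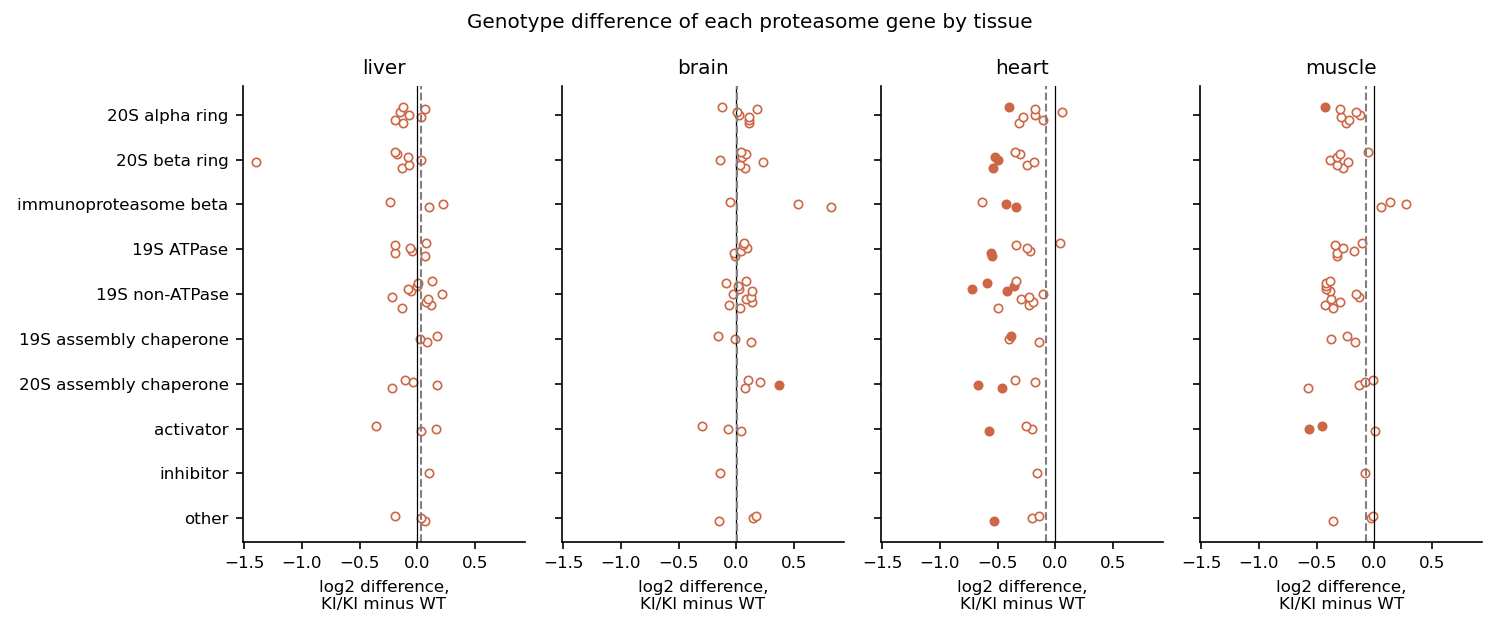
Difference between *Rap1* KI/KI and WT in log2 level for each tested member, by role (rows) and tissue (panels). Filled points are members whose 3 KI/KI mice all lay to one side of the 3 WT mice, open points the others, and the dashed line is the median of all named genes. In heart and muscle most points lie left of the dashed line, and no point passed the adjusted test.

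**Figure D4:**
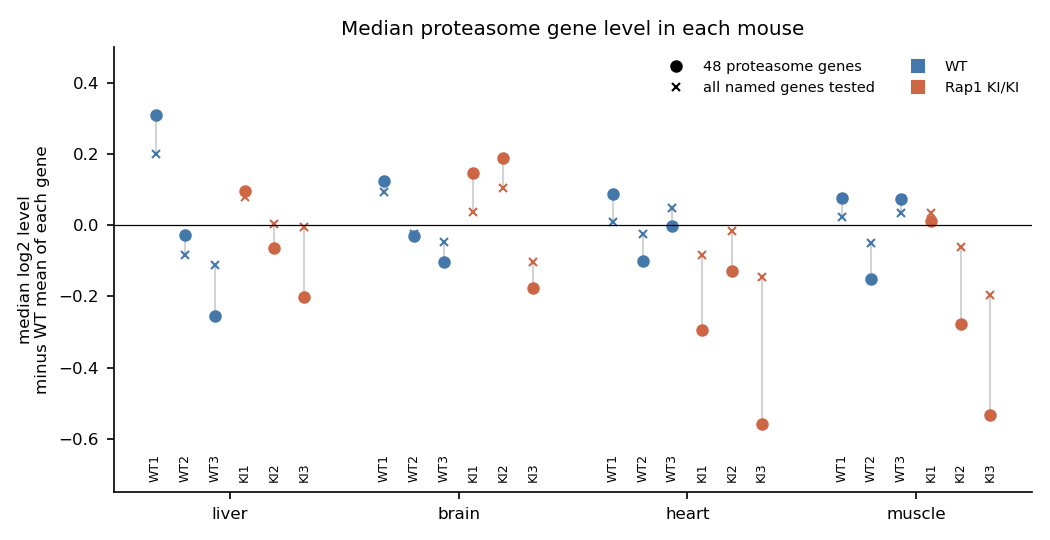
Median log2 level of the 48 members (circles) and of all named genes tested (crosses) in each mouse and tissue, relative to the WT mean of each gene, WT in blue and *Rap1* KI/KI in orange. KI3 has the lowest circle in heart and muscle, at −0.56 and −0.53, and the circles of liver range from −0.26 in WT3 to 0.31 in WT1. The crosses of KI3 in heart and muscle are at −0.15 and −0.20, and those of liver range from −0.11 in WT3 to 0.20 in WT1.

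In the brain *Psmb8* and *Psmb9* were high in 1 mouse, together with other interferon-induced genes. *Psmb8* was at 0.85 in the brain of KI3 and between −1.38 and −0.77 in the other 5 brains, and *Psmb9* at 0.27 against −1.43 to −0.86. *Psmb10* was at 4.54 in KI3 and between 4.54 and 4.79 in the others, and the constitutive *Psmb5* was lowest in KI3, at 6.18. Of 18 interferon-induced genes tested in the brain, 17 were highest in KI3, and their median lay 1.82 above the WT mean there, 0.38 in KI2 and 0.08 in KI1. *Cxcl10* was at 1.33 in KI3 and −0.31 in KI2 and between −3.54 and −2.60 in the other 4 brains. The genotype differences, with that mouse included, were 0.82 ± 0.49 for *Psmb8* (unadjusted p = 0.14, adjusted p = 1.0, limma) and 0.53 ± 0.41 for *Psmb9*, and 0.74 for the median interferon-induced gene. Without KI3 they were 0.26 for *Psmb8* and 0.09 for *Psmb9*. MHC class I processing genes had a median of 0.71 in KI3 above the WT mean and of 0.33 in WT1. The summed level of 11 leukocyte genes was 6.2 in the brain of KI3 and 4.6 to 5.5 in the others, 9 to 11 of the 11 above background on each brain array, and *Lyz2*, a lysozyme of myeloid cells, at 0.35 against −4.07 to −2.78. Of the 11 genes 7 were highest in KI3 (*Ptprc*, *Cd68*, *Cd52*, *Laptm5*, *Lyz2*, *C1qa* and *C1qb*), while *Cd3e* (−1.23) and *Ms4a1* (−7.61), markers of T and B cells, were lowest there. The summed level of neuron genes was 8.3 in KI3 and 8.6 to 9.1 in the others. Their part in the result was not tested.

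In muscle a different mouse stood out. KI2 had *Psmb8* at 2.05 against 0.97 to 1.65 in the other 5 muscles and *Psmb9* at 1.67 against 0.47 to 0.97, while *Psmb10* was at 4.93 against 4.42 to 4.81. Of 19 interferon-induced genes 13 were highest in KI2, with a median 0.68 above the WT mean, and of 12 MHC class I processing genes 8 were. *Oas1a*, an interferon-induced sensor of double-stranded RNA named, like *Lyz2*, after its values were seen, was at 1.72 there and at most 0.39 in the others. Without KI2 the differences of *Psmb8* and *Psmb9* turned from 0.06 to −0.25 and from 0.27 to −0.09. In the heart *Psmb8* and *Psmb9* were instead lower in all 3 KI/KI mice than in all 3 WT mice, by −0.34 ± 0.20 and −0.43 ± 0.20 (exact permutation p = 0.1, two-sided, n = 3 per genotype; adjusted p = 0.67 and 0.65, limma), and in the liver they differed by 0.10 and 0.23 with overlapping groups. Liver KI2 and KI3 had *Psmb8* at 3.92 and 3.99 and *Psmb9* at 3.84 and 4.15, above all 3 WT livers. Liver KI1 had 3.45 and 3.23, below all 3. Relative to the WT mean, the median interferon-induced gene in liver was at −0.33, 0.48 and 0.21 in KI1, KI2 and KI3. It was at 0.16, 0.03 and −0.20 in WT1, WT2 and WT3. In the heart that median was also highest in KI2, at 0.23, beside 0.11 in WT2. The liver difference of *Psmb9* was 0.024 without KI3, 0.13 without WT3, 0.34 without WT1 and 0.48 without KI1. The interferon-induced gene *Rsad2* (viperin) was higher in KI/KI heart by 0.73 ± 0.20 and in KI/KI muscle by 0.71 ± 0.24 (unadjusted p = 0.0091 and 0.021, adjusted p = 0.65 and 0.94, limma), with all 3 KI/KI mice above all 3 WT mice in both. It was the 1 gene of the 19 interferon-induced genes with KI/KI higher and apart in the heart, where 3.38% of all named genes were. The list there had a median difference of −0.04 with 6 of 19 above 0. In muscle the median of the list was 0.07, with 14 of 19 above 0, and 2.52% of all named genes were higher and apart.

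**Figure D5:**
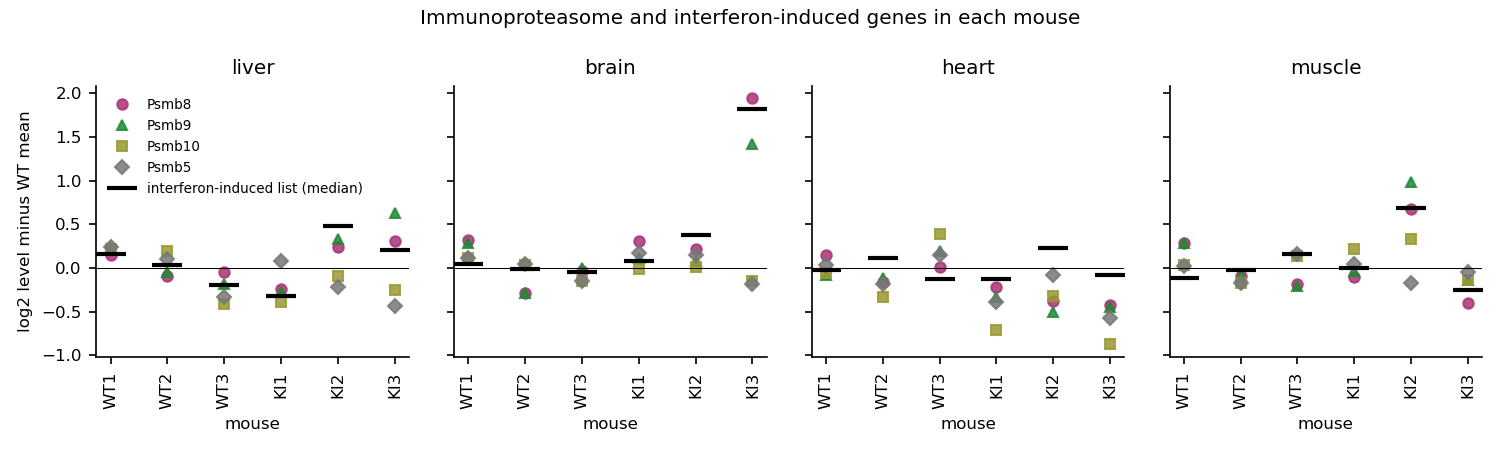
Log2 level of *Psmb8*, *Psmb9*, *Psmb10* and, for the constitutive core, *Psmb5* in each mouse, relative to the WT mean, with a black bar for the median of the interferon-induced genes (18 in brain, 19 elsewhere). In brain KI3 and muscle KI2, *Psmb8*, *Psmb9* and the bar lie above the other mice of the tissue, and *Psmb5* does not.

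Genes beside the proteasome also had no call between genotypes. The median difference of the 14 genes of ubiquitin supply and shuttling was −0.28 in muscle, with 14 of 14 below 0, and −0.20 in heart, with 12 below 0. The brightest of 5 equal groups of genes had medians of −0.14 in muscle, with 77.6% below 0, and −0.23 in heart, with 82.3% below 0. The proteasome partners had medians of −0.23 in heart and −0.20 in muscle, and the muscle ubiquitin ligases −0.23 and −0.43. *Trim54*, a ligase of the sarcomere, was 1.02 ± 0.35 lower in KI/KI heart (unadjusted p = 0.024, adjusted p = 0.65, limma), *Ubqln4*, a ubiquitin shuttle, 0.70 ± 0.27 lower (unadjusted p = 0.037), and *Ubxn1*, a cofactor of the segregase VCP, 0.60 ± 0.24 lower (unadjusted p = 0.041). In muscle *Ddi2* was 0.47 ± 0.19 lower (unadjusted p = 0.038). In the brain *Nfe2l2*, which encodes NRF2, was at 0.91, 0.99 and 0.56 in WT1, WT2 and WT3 and at 1.13, 1.34 and 2.13 in KI1, KI2 and KI3, without overlap and highest in KI3, a difference of 0.71 ± 0.31 (unadjusted p = 0.057). The regulators as a list had medians of −0.02 in liver, −0.06 in brain, −0.06 in heart and −0.14 in muscle. Whether genotype differences varied between tissues was tested in the fit of all 24 arrays. The interaction called 0 of 48 members and 0% of all named genes, and at an unadjusted p under 0.05 it held 0 members beside 2.9% of all genes. The lowest member was *Psmg4* (unadjusted p = 0.078, adjusted p = 1.0).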

How the data were processed

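RNA of each tissue was hybridised to one-colour Agilent mouse arrays (24 arrays, Cy3). RNA came from RNeasy mini columns (brain, liver) or RNeasy fibrous tissue columns (heart, muscle) and was labelled with the Low-Input Quick Amp kit. The authors scanned the arrays and extracted spots with Feature Extraction 12.0.3.1, and the deposited scanner files give processed signal as a linear intensity after background subtraction. The deposited value table holds a score per probe, which was found to be the z-score of the log2 processed signal on each array. It was used as an alternative, multiplied by the mean SD of the log2 signal (4.27181). Probes were named through their accessions in the RefSeq gene table, which gave 28331 of 55681 probes a gene, and 27350 kept no name. The 3671 control spots were left out.

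Log2 intensities were centred on the 75th percentile of their own array (471 to 1389). Testing in a tissue required a probe to exceed background clearly on 3 or more of the 6 arrays. Genotype was tested separately in each tissue (6 arrays), and tissues within a genotype in a fit of 8 groups over 24 arrays, each tissue against the mean of the other 3, and heart against muscle, with limma 3.58.1 in R 4.3.3 and Benjamini-Hochberg adjustment over all probes tested. The number of arrays limits the precision. The exact permutation test was two-sided. The fits were run on simulated data with independent noise per probe and added genotype changes larger than any member genotype difference given here. That run does not show how often differences of the reported sizes would be called. Replicates are separate mice. The members and gene lists were chosen with earlier results of these data known. Values are given for the catalytic subunits, their interferon-induced counterparts and *Psme1*, for the 3 members with the largest called difference in each direction per WT tissue contrast, for up to 5 members with the lowest genotype p among those whose groups did not overlap, and for at most 3 genes of any other list per comparison by p. Other genes are named as examples, chosen after their values were seen.

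The same mouse gave all 4 tissues, so the mouse pairs tissues. Replicate numbers were given in accession order. The study describes the WT mice as littermates, but which mice share a litter is not given in the sources used here, so genotypes were not paired. Over 36 pairs of arrays of 1 mouse, deviations from the group means had correlations of −0.22 to 0.26 (median 0.05, 9 of 36 above 0.1). Alternatives were quantile normalization, normexp background correction (offset 50), the z-scores, other filters and thresholds, the mean over probes, eBayes with trend and robust settings, age as a covariate, slide and mouse as blocks, and leaving out each mouse. Normexp was run on median spot signals. Results within 1 slide were added after the data were seen.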

Additional observations from a re-analysis of the deposited data

Results flagged for a closer look

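*Psmg4*, a chaperone of 20S core assembly, differed in opposite directions in 2 tissues, with the 3 *Rap1* KI/KI mice all above the 3 WT mice in the brain (0.37) and all below them in the heart (−0.67). Neither difference passed the adjusted test, and the interaction of genotype and tissue for *Psmg4* had an unadjusted p of 0.078 and an adjusted p of 1.0 (limma).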

How the results depend on the processing

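No genotype call was made under any alternative in any tissue, and none of the other 3 scalings turned the sign of a WT tissue median over the members. The median of all named genes moved from 0.01 to −0.15 in liver, from −0.40 to −0.22 in brain and from −0.06 to −0.11 in muscle under quantile normalization, to −0.16 in each of them under the z-scores, and to 0.17 in muscle under normexp. Of the counts, 429 of 498 stayed within 1.5 times their first value, and of the values of single genes 973 of 1011 kept direction and side of the threshold. The alternatives counted the members only, so their calls and groups apart have no share of all named genes beside them. The cause of the changes given here was not tested.

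Under quantile normalization the liver genotype median was 0.034, the difference of *Psmb5* in muscle 0.047, the members apart were 3 higher in brain and 1 higher in muscle, and the tissue calls were 18 higher and 11 lower in WT liver, 2 higher in WT brain, 22 higher and 11 lower in KI/KI liver, 5 higher and 25 lower in KI/KI brain and 7 higher in KI/KI heart, with 10 members lowest on every brain array. Under the z-scores the members apart were 6 lower in liver, 2 higher in brain and 10 lower in muscle, *Psme1* and *Psmb7* in liver had −0.053 and −0.043, the calls lower in liver were 4 in WT and 6 in KI/KI, and 19 members were lowest on every brain array. Normexp gave 3 members apart and higher in brain, and no filter 1 apart and lower in liver. Within slide 1 the brain genotype median was −0.0089.

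With the slide as a block, calls were 14 higher and 1 lower in WT liver, 3 lower in WT heart, 0 lower in WT muscle, 20 higher in KI/KI liver and 0 lower in KI/KI muscle. At an adjusted p under 0.01 they were 1 lower in WT liver, 3 lower in WT muscle and 5 lower in heart against muscle. With a log2 difference over 1 they were 15 higher and 1 lower in WT liver, 4 higher and 2 lower in WT heart, 12 higher and 0 lower in WT muscle and 4 lower in heart against muscle. With the mouse as a replicate block over the 24 arrays (correlation 0.026) the WT calls were 32 higher and 2 lower in liver, 0 and 43 in brain, 10 and 6 in heart and 28 and 5 in muscle, and the block changed no other call beyond 1.5 times.

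Leaving out 1 mouse at a time, the genotype median ranged from −0.17 to 0.085 in liver, from −0.0058 to 0.17 in brain, from −0.41 to −0.23 in heart and from −0.42 to −0.12 in muscle. Members apart ranged from 0 to 13 lower and 0 to 11 higher in liver, 0 to 2 lower and 1 to 17 higher in brain, 17 to 30 lower in heart, and 3 to 25 lower and 0 to 1 higher in muscle. With 1 mouse left out, groups lie apart more easily. Calls ranged from 1 to 3 lower in WT liver, 5 to 10 higher in WT heart, 2 to 5 lower in WT muscle, 3 to 7 higher and 4 to 17 lower in WT heart against muscle, 2 to 5 higher and 4 to 11 lower in KI/KI heart, and 13 to 25 higher and 2 to 5 lower in KI/KI muscle. Genotype differences that crossed 0 ranged in liver from −0.081 to 0.19 for *Psme1*, from −0.0024 to 0.27 for *Psmb8*, from −0.026 to 0.084 for *Psmb7* and from −0.36 to 0.024 for *Psmb6*. In brain they ranged from −0.097 to 0.17 for *Psme1*, from −0.33 to 0.054 for *Psmb7*, from −0.12 to 0.0047 for *Psmb10*, from −0.0080 to 0.21 for *Psmb6* and from −0.030 to 0.16 for *Psmb5*. In muscle they ranged from −0.15 to 0.14 for *Psme1*, from −0.25 to 0.29 for *Psmb8*, from −0.086 to 0.48 for *Psmb9* and from −0.14 to 0.020 for *Psmb5*.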
